A study of Cucurbita pepo with 23 samples.

Results

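The nectaries of male squash flowers were compared between 24 and 15 hr before the flower opened, over daylight hours in which the gland matures before it secretes. The comparison rests on 6 of the 23 libraries of the series, 3 from male nectaries at −24 hr and 3 at −15 hr, and on all 8861 genes of the deposited table. Every plant was Crookneck Yellow Squash (*Cucurbita pepo*) grown in long days, with no treatment, and male and female flowers were borne on the same plants. RNA was taken from hand-dissected nectaries at −24, −15, 0 and +9 hr relative to anthesis, the opening of the flower shortly after dawn. The deposited design text puts the second timepoint at −12 hr and the last at +12 hr, whereas the hours given here follow the study's methods. By these stated hours the −24 and 0 hr timepoints share a time of day, in the morning, and the −15 and +9 hr timepoints share another, 9 hr later. Each gene is a melon sequence to which the assembled squash reads were matched, and each value is a number of normalized reads, scaled by the authors to a like upper quartile and rounded.

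A nectary is a sink tissue that stores starch before the flower opens, degrades it, rebuilds sucrose from the products and exports the sucrose through the uniporter SWEET9. Cell wall invertases then hydrolyze some of the exported sucrose outside the cell, and water follows the sugars. Much of plant transcription also follows the day: in Arabidopsis the MYB factors LHY and CCA1 peak at dawn and repress evening genes such as LUX (PCL1), which acts with ELF3 and ELF4 in the evening complex. Genes for light-harvesting proteins, chlorophyll synthesis and water channels are known outputs of light and of this clock.

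Between −24 and −15 hr, 139 genes were higher at −15 hr and 328 were lower. These are genes with an adjusted p under 0.05 by limma, a linear model fitted to log2(value + 1) over all libraries, and a change of at least 2-fold on that scale. They make up 1.57% and 3.7% of the genes tested. The median change among the genes called was 3.28-fold for those that rose and 3.4-fold for those that fell, and 23 and 66 of them changed 8-fold or more. The 3 libraries at −24 hr did not overlap the 3 at −15 hr for any of the 139 genes that rose and for 324 of the 328 that fell. Over all genes, every −15 hr library lay above every −24 hr library for 15.5% and below for 19.2%. An unadjusted p under 0.05 was found for 1647 genes, and the median gene changed by −0.04 on the log2 scale. The plot of change against level places the genes called across the whole range of levels.

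**Figure D1:**
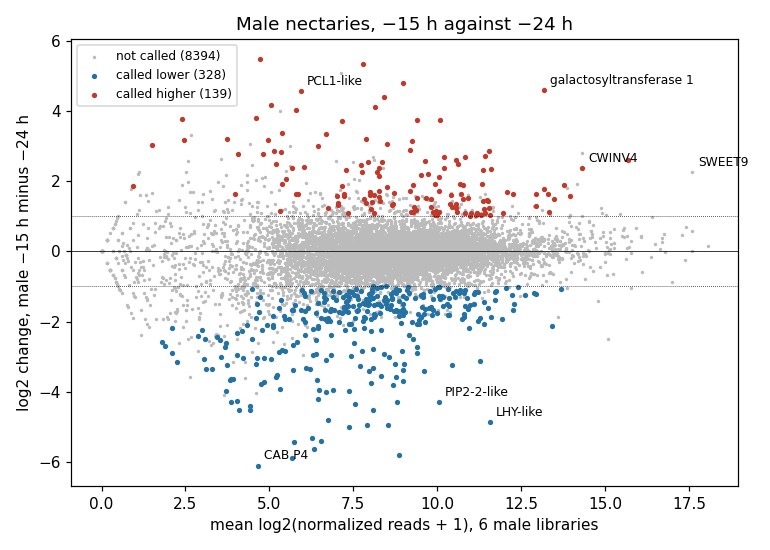
Change of each gene between −24 and −15 hr in male nectaries (vertical axis, log2 change) against its mean level (horizontal axis, mean log2 of normalized reads + 1 over the 6 male libraries). Each point is 1 of 8861 genes, red for the 139 called higher at −15 hr, blue for the 328 called lower and grey for the rest, with dotted lines at a 2-fold change. LHY-like and CAB P4 lie far below the lines and PCL1-like and galactosyltransferase 1 far above them, while SWEET9 lies above the line without passing the test.

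The calls depended on single libraries. The counts fell to 65 higher and 181 lower without the second −15 hr library, to 77 and 179 without the first −24 hr library, and to 81 and 197 without the second. In each of the 6 fits that left out 1 of these libraries, 47 of the genes that rose and 140 of those that fell were called. The second −15 hr library lay farthest from the −24 hr mean for 75 of the 139 higher and 198 of the 328 lower genes, against 46.4% of all genes. The third −24 hr library lay nearest to the −15 hr mean for 65 and 191 of them, against 39.1% of all genes. Correlations of log2 values across genes were 0.972 to 0.979 within −24 hr, 0.957 to 0.969 within −15 hr and 0.916 to 0.953 between the timepoints.

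The normalized values of a library summed to between 13088284 and 13436007 at −24 hr and to between 14149930 and 15455334 at −15 hr, with 89 to 154 and 134 to 156 genes at 0. Markers of nectary tissue were present: the transcription factor MYB305 and the invertase CWINV4 summed to between 51556 and 55664 normalized reads at −24 hr and to between 101857 and 118115 at −15 hr. The third gene of that list, a MYB305-like entry, was listed at 0 in each library. None of the 6 phloem and 4 xylem markers passed the test, but the phloem list summed to between 46177 and 54632 normalized reads at −24 hr and to between 66634 and 101283 at −15 hr, without overlap. Its part in the results here was not tested. Of the 4 pollen and tapetum markers, 1 SF3-like gene fell (XM_008454899.1, 53, 39 and 33 normalized reads against 22, 7 and 4), while the list summed to between 1848 and 2503 normalized reads at −24 hr and to between 1798 and 2492 at −15 hr. Of the 15 organelle transcripts, 1 was lower. These calls are 25% of the pollen and tapetum list and 6.67% of the organelle list, against 3.7% of all genes lower. Both were lost after quantile normalization. As these are bulk samples, fewer cells of a type and less RNA per cell cannot be told apart. The labels do not say whether replicates came from separate plants, so p-values measure the spread between these samples.

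Morning and evening clock genes differed in the direction of their calls. Of the 9 morning clock genes, 5 fell and 1 rose, and of the 10 evening clock genes, 3 rose and none fell, against 5.27% of all genes called in either direction. The median log2 change was −1.19 for the morning list and 0.82 for the evening list, with a positive change in 4 of the 9 morning genes and in each of the 10 evening genes. Of the 5 morning genes that fell, 2 are entries of 1 LHY-like locus. Without the first −24 hr, the second −15 hr or the third −15 hr library, 1 of the 10 evening genes was called, while 4 or 5 of the morning genes were called lower in each of the 6 fits without 1 library. LHY-like (XM_008461600.1), the dawn repressor, had 20838, 17112 and 12254 normalized reads at −24 hr and 669, 598 and 437 at −15 hr. The lowest morning library thus lay far above the highest library of the later timepoint (log2 change −4.87, SE 0.87, adjusted p = 0.00173 by limma). The other LHY-like entries, XM_008461602.1 and XM_008461606.1, come from the same melon locus and changed by −4.53 and −5.81, so the 3 entries are not separate genes. XM_008461606.1 lies outside the list.

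PCL1-like (XM_008459233.1), the counterpart of the evening-complex factor LUX, had 8, 6 and 31 normalized reads at −24 hr and 343, 244 and 310 at −15 hr (log2 change 4.56, SE 0.74, adjusted p = 0.000698 by limma). A second entry of its locus, XM_008459232.1, went from 14, 46 and 88 to 493, 490 and 563, with the highest of its −24 hr values again in the third library. Its call was lost in 3 of the 6 fits without 1 library. Adagio protein 3 (XM_008454189.1), the blue-light F-box protein known as FKF1, rose from 209, 308 and 643 to 1404, 1232 and 2162, a call held in 1 of those 6 fits. The remaining evening genes did not pass. The GIGANTEA-like entry XM_008458521.1, for a clock protein that works with FKF1, had 15245, 17253 and 20234 normalized reads at −24 hr and 20142, 47329 and 31737 at −15 hr, an overlap between the timepoints.

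Cyclic dof factor 3 (XM_008454987.1), a repressor of flowering genes that FKF1 removes in Arabidopsis, fell from 1328, 1437 and 1125 to 168, 112 and 143 (log2 change −3.2, SE 0.35, adjusted p = 1.68e-05 by limma). It was called in each of the 6 fits without 1 library. The morning list also held 1 gene that rose. REVEILLE 6-like (XM_008441057.1), a MYB factor related to LHY, had 14, 39 and 57 normalized reads at −24 hr and 480, 144 and 519 at −15 hr, and its call was lost without the first −24 hr library. A second REVEILLE 6-like entry, XM_008439311.1, did not pass (876.0 and 923.7 normalized reads on average).

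Of the 17 photoreceptor and light signalling genes, 8 fell and 1 rose, together 52.9% of the list against 5.27% of all genes, and 15 had a negative change, with a median log2 change of −1.26. Without the first −24 hr library, and likewise after quantile normalization, 4 of them fell. SPA1-RELATED 4 (XM_008454226.1), a partner of the ubiquitin ligase COP1 that marks light-signalling factors for degradation in the dark, fell from 1399, 1232 and 726 to 152, 156 and 99 normalized reads (log2 change −3.01, SE 0.4, adjusted p = 0.000117 by limma). A COP1-like gene (XM_008460765.1) went from 126, 99 and 71 to 17, 5 and 13. The salt tolerance-like entries are B-box zinc finger proteins of the same pathway, and 3 of them were called, with log2 changes between −4.26 and −3.41.

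Among the photoreceptors themselves, phytochrome B (XM_008440738.1), a red light receptor, fell from 1883, 1707 and 1604 to 675, 780 and 718 normalized reads, with narrow spreads at both timepoints (log2 change −1.26, SE 0.26, adjusted p = 0.00525 by limma). A cryptochrome-1 entry (XM_008468010.1) for a blue light receptor fell at low values, from 42, 51 and 31 to 17, 21 and 7. The cryptochrome-1 entry XM_008462418.1 averaged 6884 and 6946 normalized reads and did not pass. Phototropin-2-like (XM_008463789.1), a receptor that moves chloroplasts in blue light, was the gene of this list that rose, from 262, 364 and 637 to 2263, 1672 and 1579 (log2 change 2.2, SE 0.47, adjusted p = 0.00642 by limma). Outside the list and among the largest decreases, the ultraviolet-B receptor UVR8 (XM_008463487.1) went from 1937, 1137 and 1056 to 54, 36 and 38.

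**Figure D2:**
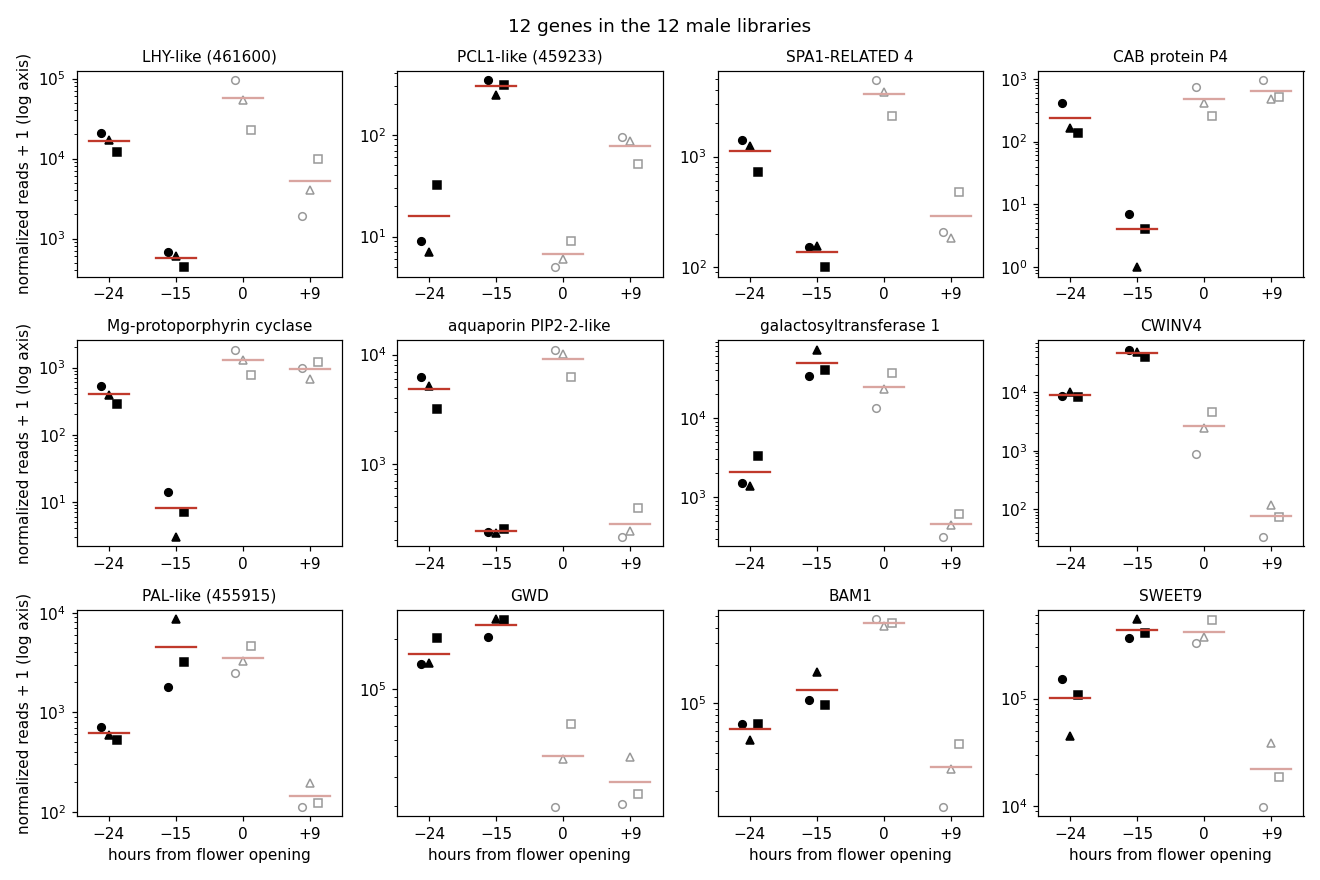
Normalized reads + 1 (vertical axis, log scale) of 12 genes in the 12 male libraries by hours from flower opening (horizontal axis). Filled black points are the 6 libraries compared here, open grey points the 0 and +9 hr libraries, circles, triangles and squares replicates 1, 2 and 3, and bars the group means. LHY-like drops from 12254 or more to 669 or less between −24 and −15 hr, galactosyltransferase 1 rises from 3261 or less to 33725 or more, and PAL-like has its highest value in the second −15 hr library.

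Many genes of the photosynthetic apparatus fell. Of the 25 genes of photosystems and light harvesting, 12 fell (48%, against 3.7% of all genes) and none rose, 23 had a negative change, and the median log2 change was −2.57. Together they summed to 6041, 3980 and 3445 normalized reads at −24 hr and to 1262, 639 and 1200 at −15 hr. Chlorophyll a-b binding protein P4 (XM_008454989.1), which carries antenna pigments, had the largest decrease of any gene called, from 408, 163 and 134 normalized reads to 6, 0 and 3 (log2 change −6.1, SE 0.61, adjusted p = 7.87e-06 by limma). The antenna proteins CP26 (XM_008461272.1, 137, 83 and 22 to 11, 0 and 2) and CP24 (XM_008443305.1, 34, 25 and 55 to 9, 7 and 4) fell as well. Values at −15 hr were near 0 for several of these genes, so their fold changes depend on the 1 added before the logarithm. With 10 added, the median of the list was −1.34, 8 genes were called lower and the log2 change of P4 (XM_008454989.1) was −4.1.

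Genes of photosystem II, which splits water, were also among those that fell. The photosystem II 10 kDa polypeptide (XM_008453604.1) went from 2245, 1240 and 1308 to 145, 54 and 163 normalized reads (log2 change −3.81, SE 0.58, adjusted p = 0.000445 by limma). The oxygen-evolving enhancer proteins 1 (XM_008441959.1) and 2 (XM_008453618.1), which stabilize the water-splitting centre, changed by −2.52 and −3.36. The 13 genes of the list that did not pass included 3 photosystem I subunits, among them subunit XI (XM_008443632.1) at averages of 130.3 and 116.3 normalized reads. Without the second −15 hr library, and likewise without the first −24 hr library, 7 of the 25 genes were called lower, and 8 after quantile normalization.

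Chlorophyll synthesis was examined as a list added after the values were seen. Of its 21 genes, 4 fell (19%, against 3.7% of all genes) and none rose, with a median log2 change of −0.05. Magnesium-protoporphyrin IX monomethyl ester cyclase (XM_008467014.1), which closes the fifth ring of chlorophyll, went from 532, 395 and 287 normalized reads to 13, 2 and 6 (log2 change −5.89, SE 0.57, adjusted p = 6.45e-06 by limma). Glutamyl-tRNA reductase 1 (XM_008446745.1), the committed step of the pathway, went from 1243, 1070 and 620 to 47, 6 and 72. Chlorophyllide a oxygenase (XM_008468493.1), which makes chlorophyll b, went from 851, 639 and 482 to 88, 70 and 46. These genes did not overlap between the timepoints and were called in each of the 6 fits without 1 library. The other 17 genes of the pathway did not pass.

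Further plastid genes stood among the largest decreases. The plastid ribosomal protein L1 (XM_008463600.1) fell from 851, 719 and 290 normalized reads to 17, 9 and 7, and the kinase STN7 (XM_008467504.1), which rebalances light between the photosystems, from 447, 324 and 288 to 9, 5 and 8. Of the 610 genes with chloroplastic in their description, 58 fell and 11 rose (11.3% in all, against 5.27% of all genes), a list also chosen after its values were seen. Without the second −15 hr library, 24 of them fell and 8 rose. Of the 34 terpene and carotenoid genes, 4 fell (11.8%, against 3.7% of all genes) and none rose. Without the second −15 hr library, and likewise after quantile normalization, 2 were called lower. Zeaxanthin epoxidase (XM_008459560.1), which turns zeaxanthin to violaxanthin in dim light and supplies abscisic acid synthesis, went from 1876, 1450 and 1565 to 181, 86 and 235 (log2 change −3.39, SE 0.53, adjusted p = 0.000544 by limma).

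**Figure D3:**
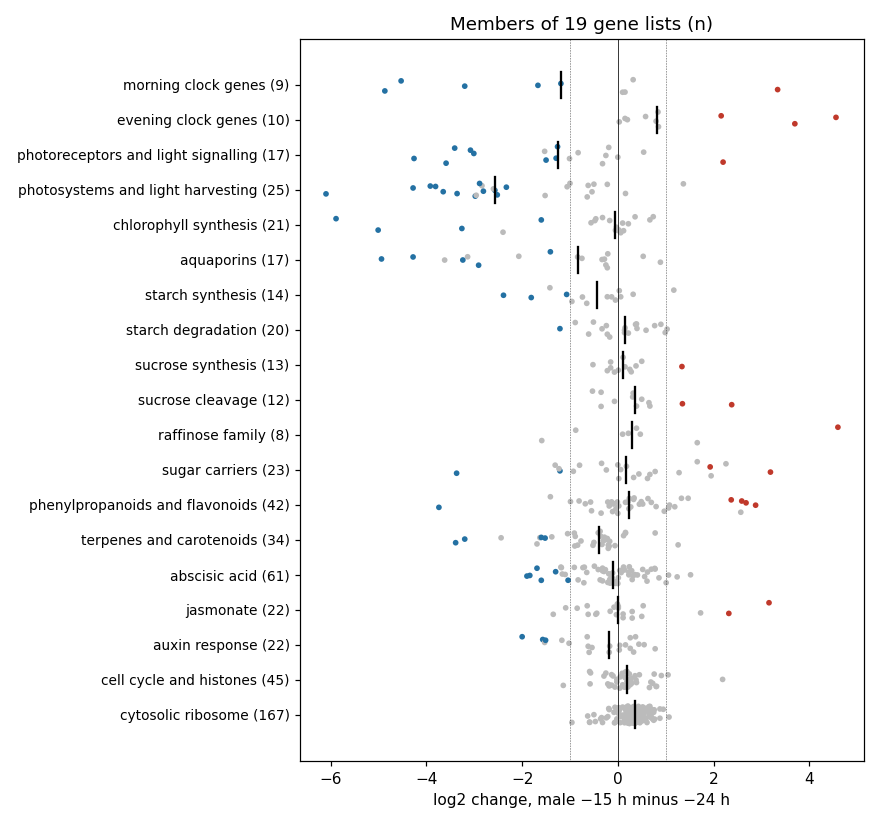
Log2 change between −24 and −15 hr in male nectaries (horizontal axis) of the members of 19 gene lists (vertical axis, number of members in brackets). Each point is 1 gene, red where called higher, blue where called lower and grey where not called, black bars are list medians and dotted lines mark a 2-fold change. The photosystem list has its median at −2.57 and 12 genes called lower, and the cytosolic ribosome list has its median at 0.35 and none called.

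Some plasma membrane aquaporins, which pass water across the cell surface, were lower at −15 hr. Of the 17 aquaporin genes, 5 fell (29.4%, against 3.7% of all genes), all of the PIP type, and none rose. The median log2 change of the 17 was −0.84. After quantile normalization 3 of them fell. PIP1-4 (XM_008465000.1) went from 4714, 2826 and 629 normalized reads to 116, 36 and 66 (log2 change −4.94, SE 0.59, adjusted p = 3.87e-05 by limma). PIP2-2-like (XM_008451033.1) went from 6181, 5209 and 3202 to 237, 232 and 253 (log2 change −4.28, SE 0.62, adjusted p = 0.000269 by limma). In both genes the third −24 hr library was the lowest of its timepoint and still lay above each −15 hr library. PIP2-7 (XM_008465721.1) fell from 313, 313 and 121 to 34, 23 and 33, PIP1-2 (XM_008439071.1) from 903, 793 and 626 to 243, 263 and 370, and a second PIP1-4 entry (XM_008468703.1) from 99, 63 and 10 to 6, 5 and 1. The PIP2-5 entry XM_008458254.1 averaged 76.3 and 43.3 and did not pass.

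Some genes that cleave or move sugars rose and others fell. The cell wall invertase that the study names CWINV4 (XM_008446238.1, CWINV3-like in the table's own description) hydrolyzes sucrose outside the cell and is needed for nectar secretion in Arabidopsis. It had 8568, 10110 and 8374 normalized reads at −24 hr and 52803, 48428 and 40162 at −15 hr (log2 change 2.38, SE 0.58, adjusted p = 0.0166 by limma). The groups lay well apart, but the call was lost in 3 of the 6 fits without 1 library and after quantile normalization. The squash transcript behind this value is shown by the stretch of 101 bases that the study's RT-PCR primers span, with the primer sites in capitals.
CWINV4: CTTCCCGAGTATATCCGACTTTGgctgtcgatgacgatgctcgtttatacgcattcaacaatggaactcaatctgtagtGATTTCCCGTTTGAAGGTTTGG

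The 12 genes of sucrose cleavage had a median log2 change of 0.35. Of these, CWINV4 and 1 other rose (16.7%, against 1.57% of all genes) and none fell. The other was the alkaline/neutral invertase CINV2 entry XM_008440750.1, an enzyme that cleaves sucrose inside the cell, with 792, 895 and 794 normalized reads at −24 hr and 1984, 1981 and 2399 at −15 hr (log2 change 1.35, SE 0.3, adjusted p = 0.00913 by limma). It was called in each of the 6 fits without 1 library. Sucrose synthase 5 (XM_008464945.1), a reversible sucrose-cleaving enzyme, had 40535, 25023 and 17389 against 23098, 56410 and 30487 and did not pass.

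The raffinose family, galactosyl sucroses that serve as transport and storage sugars in cucurbits, also held a gene that rose. The probable galactinol-sucrose galactosyltransferase 1 (XM_008465452.1) had 1490, 1393 and 3261 normalized reads at −24 hr and 33725, 72368 and 40013 at −15 hr (log2 change 4.6, SE 0.5, adjusted p = 1.68e-05 by limma). Its lowest −15 hr library lay above its highest −24 hr library, and it was called under each of the 13 alternatives. It was the only one of the 8 genes of the family that passed. Galactosyltransferase 2 (XM_008462536.1) had 177707, 190447 and 164585 against 82331, 106720 and 101859 (log2 change −0.88, SE 0.64, adjusted p = 0.523 by limma). Galactosyltransferase 6 (XM_008445736.1, RAFS6) had 122302, 131368 and 159546 against 147280, 238720 and 192364 (adjusted p = 0.719 by limma). The names are those of the melon descriptions. The study takes its RAFS6 and SIP2 genes for putative α-galactosidases, which hydrolyze such sugars, and describes both as highly expressed at both timepoints. Galactosyltransferase 1 and galactosyltransferase 2 both match the Arabidopsis gene SIP2.

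Of the 23 sugar carriers, 2 rose and 2 fell (17.4% in all, against 5.27% of all genes). In 5 of the 6 fits without 1 library, 1 each way was called. Sugar transport protein 7 (XM_008445673.1), a proton-coupled importer of monosaccharides at the plasma membrane, rose from 474, 394 and 691 to 1487, 2335 and 2053 normalized reads (log2 change 1.93, SE 0.4, adjusted p = 0.00565 by limma). Sugar transport protein 13 (XM_008451338.1), of the same family, rose at low values, from 5, 6 and 1 to 17, 74 and 46, and was called in 1 of the 6 fits without 1 library. Monosaccharide-sensing protein 2 (XM_008449943.1), a vacuolar sugar carrier, fell from 201, 155 and 149 to 18, 15 and 13 (log2 change −3.37, SE 0.36, adjusted p = 1.39e-05 by limma). The plastidic glucose transporter 4 (XM_008463334.1), which exports glucose made from starch, fell from 3192, 3354 and 3455 to 1694, 1018 and 1713.

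SWEET9 (XM_008443590.1, NEC1-like), the sucrose uniporter of nectaries, had 151449, 44688 and 107888 normalized reads at −24 hr and 366606, 543926 and 403286 at −15 hr. The libraries did not overlap, but the change did not pass (log2 change 2.26, SE 0.93, adjusted p = 0.183 by limma over all libraries), and it passed when only the 12 male libraries were fitted. In the hexose pool, fructokinase-1 (XM_008469032.1), which phosphorylates fructose, fell from 853, 1026 and 704 to 30, 47 and 49 (log2 change −4.34, SE 0.47, adjusted p = 1.68e-05 by limma). Cytosolic fructose-1,6-bisphosphatase (XM_008447539.1), a step from triose phosphates to sucrose, rose from 1122, 868 and 865 to 2368, 2556 and 2254 (log2 change 1.34, SE 0.22, adjusted p = 0.000687 by limma). It was the only one of the 13 genes of sucrose synthesis that passed. The sucrose-phosphate synthase SPS2 (XM_008458932.1) had 188267, 203315 and 202237 against 176164, 232348 and 191259, a log2 change of 0.01 with an SE of 0.81.

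Of the 14 genes of starch synthesis, 3 fell (21.4%, against 3.7% of all genes) and none rose, with a median log2 change of −0.44. The calls depended on the samples fitted: with only the 6 male libraries compared here, none was lower and 1 was higher, and after quantile normalization 1 was lower. Granule-bound starch synthase 1 (XM_008439233.1), which makes amylose, had 1129, 1093 and 1806 normalized reads at −24 hr and 630, 112 and 218 at −15 hr. Granule-bound starch synthase 2 (XM_008445178.1) had 342, 254 and 235 against 200, 82 and 134. The plastid phosphoglucomutase (XM_008469031.1), which supplies glucose-1-phosphate, had 2084, 2551 and 2550 against 1410, 288 and 767. In each of the 3 genes the second −15 hr library was the lowest of all, and none of the list was called without it, or without the first or the second −24 hr library. The small subunit of ADP-glucose pyrophosphorylase, ApS1 (AF030382.1), the entry step of the pathway, had 12656, 10016 and 15105 against 7694, 5551 and 6095 without passing (log2 change −0.96, SE 0.42, adjusted p = 0.217 by limma).

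The starch branching enzyme entry XM_008466627.1 (SBE2) had 34407, 55482 and 53506 normalized reads at −24 hr and 35181, 11970 and 12759 at −15 hr, so the first −15 hr library lay within the earlier range. It did not pass (adjusted p = 0.126 by limma), and passed without that library with a log2 change of −1.92. The other SBE2 entry (XM_008444588.1), the large subunit ApL2 (XM_008468318.1) and isoamylase 1 (XM_008455308.1, ISA1) changed by −0.65, 0.06 and 0.03 on the log2 scale, with SEs of 0.33, 0.38 and 0.38, and overlapped between the timepoints.

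Of the 20 genes of starch degradation, 1 fell (5%, against 3.7% of all genes) and none rose, with a median log2 change of 0.15. The one called was the plastidic glucose transporter 4 named above, whose call was lost in 5 of the 6 fits without 1 library, with only the 12 male libraries and after quantile normalization. With only the 6 male libraries compared here, 1 gene of the list was higher and 1 lower. Glucan water dikinase (XM_008447957.1, GWD), which phosphorylates starch at the start of its breakdown, had 140902, 144484 and 201605 normalized reads at −24 hr and 205881, 261798 and 260357 at −15 hr (log2 change 0.59, SE 0.56, adjusted p = 0.653 by limma). Beta-amylase 1 (XM_008440214.1, BAM1), which releases maltose, had 67422, 50399 and 68420 against 106231, 176202 and 96975 (log2 change 0.99, SE 0.66, adjusted p = 0.474 by limma). Neither gene overlapped between the timepoints, and neither passed. Alpha-amylase 3 (XM_008448092.1, AMY3) had 78908, 96030 and 95504 against 75884, 77968 and 85435, and phosphoglucan water dikinase (XM_008455784.1, PWD) 17334, 21786 and 25062 against 34188, 22603 and 27843. Those last genes overlapped between the timepoints.

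Phenylalanine ammonia-lyase, the first enzyme of phenylpropanoid synthesis, accounted for each of the 4 genes that rose among the 42 of phenylpropanoids and flavonoids. The entry XM_008455915.1 had 717, 596 and 527 normalized reads at −24 hr and 1804, 8552 and 3202 at −15 hr (log2 change 2.59, SE 0.72, adjusted p = 0.0369 by limma). In the entries XM_008451014.1, XM_008451016.1 and XM_008451017.1, too, the second −15 hr library was the highest, at 10693, 2391 and 4098. Without that library, or without any single −24 hr library, none of the 42 genes was called. The entries belong to similar loci, so reads could be split between them and they may not be independent. In the same list the anthocyanidin 3-O-glucosyltransferase 5-like gene (XM_008455524.1) fell from 464, 1329 and 1426 to 240, 5 and 253. The genes called were 11.9% of the list, against 5.27% of all genes.

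Hormone genes were called in both directions. Of the 61 genes of the abscisic acid list, 6 fell (9.84%, against 3.7% of all genes) and none rose: the receptors PYL8-like (XM_008467156.1, 285, 252 and 166 to 75, 87 and 120) and PYL4-like (XM_008444150.1, 425, 395 and 459 to 132, 287 and 233), and 4 protein phosphatases 2C, of which only some clades act in this pathway. Protein phosphatase 2C 40 (XM_008440659.1) fell with little spread, from 434, 420 and 433 to 124, 111 and 167 (log2 change −1.69, SE 0.33, adjusted p = 0.00382 by limma). The count of 6 went down to 3 without the first −15 hr library or without any single −24 hr library, and to 2 after quantile normalization. Of the 22 jasmonate genes, 2 rose (9.09%, against 1.57% of all genes) and none fell, and 1 was called without the second −15 hr or the first −24 hr library. TIFY 9-like (XM_008461681.1), a repressor of jasmonate responses, went from 45, 72 and 100 to 388, 363 and 296 (log2 change 2.32, SE 0.36, adjusted p = 0.000516 by limma). An allene oxide synthase-like gene (XM_008456662.1) rose at low values, from 0, 2 and 1 to 7, 66 and 7.

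Of the 39 ethylene genes, 1 rose and 1 fell (5.13% in all, against 5.27% of all genes). The factor SHINE 2-like (XM_008468186.1), an activator of cuticle lipid genes in Arabidopsis, went from 12, 7 and 20 to 67, 110 and 112 normalized reads (log2 change 2.87, SE 0.5, adjusted p = 0.00128 by limma). The ethylene-forming enzyme X69935.1 had 10, 1093 and 45 against 4, 8 and 0. Its decrease (log2 change −4.53, SE 1.32, adjusted p = 0.0466 by limma) rested on the second −24 hr library, and without it the log2 change was −2.66 and did not pass. None of the 5 gibberellin genes was called.

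A few auxin and floral regulators were lower at −15 hr. Of the 22 auxin response genes, 3 fell (13.6%, against 3.7% of all genes) and none rose. Auxin response factor 6 (XM_008441364.1), which together with ARF8 is needed for nectary formation and flower maturation in Arabidopsis, had 3130, 3147 and 3079 normalized reads at −24 hr and 1113, 1004 and 1036 at −15 hr (log2 change −1.57, SE 0.28, adjusted p = 0.00181 by limma). The replicates of this gene were close together at both timepoints. ARF19-like (XM_008452561.1) went from 2105, 2298 and 1962 to 893, 520 and 881, and the auxin efflux carrier 7-like gene (XM_008456566.1) from 135, 234 and 71 to 21, 49 and 32. ARF8 (XM_008464905.1) averaged 1905.7 and 957 and did not pass, with an adjusted p of 0.0525 by limma.

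Among floral organ identity genes, 1 of 3 fell (33.3%, against 3.7% of all genes), a call lost after quantile normalization. This was SEPALLATA 1-like (XM_008466354.1), a MADS-box partner of the organ identity factors, from 9744, 9691 and 9407 to 4381, 3545 and 4307 (log2 change −1.24, SE 0.25, adjusted p = 0.00392 by limma). MYB305 (XM_008445303.1), which regulates starch metabolism and nectar genes in tobacco nectaries, had 47096, 41446 and 44062 normalized reads at −24 hr and 49533, 69687 and 61695 at −15 hr. Its libraries did not overlap, but the change was small (log2 change 0.44, SE 0.68, adjusted p = 0.805 by limma). Of the 6 nectary regulators, CWINV4 rose and ARF6 fell (33.3% in all, against 5.27% of all genes). Of the 9 wall-loosening genes, 1 fell (11.1%, against 3.7% of all genes): xyloglucan endotransglucosylase/hydrolase XM_008468726.1, from 7998, 5977 and 9125 to 1965, 2002 and 1965.

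Several large increases came from genes with other functions. A pirin-like protein (XM_008449469.1) had 33, 42 and 28 normalized reads at −24 hr and 2915, 687 and 1404 at −15 hr (log2 change 5.34, SE 0.48, adjusted p = 5.95e-06 by limma). HIPP26, a heavy metal-associated isoprenylated protein (XM_008458867.1), had 78, 107 and 105 against 3285, 4199 and 1345 (log2 change 4.78, SE 0.71, adjusted p = 0.000367 by limma). Phosphomethylpyrimidine synthase (XM_008459164.1), which makes the pyrimidine part of thiamine in plastids, rose from 139, 251 and 729 to 5474, 2158 and 5164. Each of these was called in all 6 fits without 1 library.

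Other large increases were a receptor-like kinase (XM_008465551.1, 4, 7 and 11 to 162, 124 and 136), serine carboxypeptidase II-2 (XM_008454319.1, 47, 68 and 145 to 1064, 412 and 846) and a hippocampus abundant transcript-like gene (XM_008458370.1, 62, 42 and 113 to 326, 4945 and 993). The last of these had its highest value in the second −15 hr library and was called in all 6 fits without 1 library. The second −15 hr library was also the highest in a non-lysosomal glucosylceramidase (XM_008461370.1, 1467, 834 and 1088 to 3593, 21673 and 6478) and UDP-glycosyltransferase 85A2 (XM_008468000.1, 106, 79 and 227 to 581, 1877 and 1033). A putative methyltransferase (XM_008457465.1) went from 17, 8 and 6 to 48, 141 and 120, and CBSX1-like (XM_008463588.1), a plastid regulator of thioredoxins, from 10, 18 and 16 to 134, 70 and 129. Without 1 library, the call of CBSX1-like was lost in 5 of the 6 fits, that of UDP-glycosyltransferase 85A2 in 3, and those of the glucosylceramidase and the putative methyltransferase in 2 each. Large decreases outside the lists were ABC transporter F family member 5 (XM_008441919.1, 797, 708 and 375 to 16, 5 and 27) and the methyltransferase PMT11 (XM_008463486.1, 3466, 1350 and 1588 to 124, 90 and 87).

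Against 5.27% of all genes called in either direction, several gene groups gave no call. None of the 167 cytosolic ribosome genes, 45 cell cycle and histone genes, 22 proton pump genes and 10 trehalose genes passed. The ribosome genes had a median log2 change of 0.35 with 148 of 167 above 0, and their sum was 116194, 100693 and 114971 normalized reads at −24 hr against 154248, 124285 and 139494 at −15 hr. Heat shock and chaperone genes, at 4 lower and 1 higher of 98 (5.1%), and pectin genes, at 1 each way of 36 (5.56%), were called about as often as all genes. Without the first −24 hr or the second −15 hr library, 1 heat shock gene and no pectin gene was lower. There were 1 higher gene of 16 for the cuticle and 2 higher and 1 lower of 34 for amino acids and GABA. In the last list, where 3 were lower with only the 6 male libraries compared here, the amino acid permease 3-like gene (XM_008468531.1), an importer of amino acids, fell from 407, 444 and 158 to 31, 16 and 25. The reference gene of the study's RT-PCR, a RING/U-box ligase (XM_008439865.1), had 3014, 2643 and 2863 against 1842, 3152 and 2578 (log2 change −0.2, SE 0.21, adjusted p = 0.693 by limma).

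Over the same stated hours, far more genes were called in female nectaries. In the 3 female libraries at −24 hr and the 2 at −15 hr, 1228 genes (13.9%) were higher at −15 hr and 2128 (24%) were lower. Of the 139 genes that rose in male nectaries, 69 also rose in female nectaries, 12 fell and 58 were not called. The 69 are 49.6% of the male list and 5.62% of the female list. Of the 328 that fell, 128 also fell in female nectaries, 41 rose and 159 were not called, and the 128 are 39% of the male and 6.02% of the female list. At −24 hr, 2181 genes (24.6%) were higher and 1472 (16.6%) lower in female than in male nectaries. At −15 hr these numbers were 8 (0.0903%) and 4 (0.0451%), with 370 genes at an unadjusted p under 0.05.

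The test of the difference itself, the male change minus the female change, called 1393 genes (15.7%) with a higher and 1090 (12.3%) with a lower value in male nectaries. The cytosolic ribosome gave 159 of its 167 genes with a higher value: 162 of them fell in female nectaries and none was called in male nectaries. Among the genes that did not pass in male nectaries, AMY3 (XM_008448092.1) rose in female nectaries from a mean of 3624.7 (SD 2669.7, n = 3) to 67743.5 (SD 14766.5, n = 2), while the male mean was 90147.3 (SD 9737.1, n = 3) at −24 hr. MYB305 (XM_008445303.1) rose in female nectaries from 46 ± 15.6 to 53598.5 ± 7405.5, against a male −24 hr mean of 44201 ± 2828. SWEET9 (XM_008443590.1) rose in female nectaries from 173.7 ± 42.7 to 240771 ± 73218, against a male −24 hr mean of 101342 ± 53681. In each of these genes every male −24 hr library lay far above the female mean of that timepoint. For AMY3 (XM_008448092.1), MYB305 and SWEET9 the log2 differences of the changes were −4.65, −9.76 and −8.16, each with an adjusted p of 0.000283 or less by limma.

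In female nectaries XM_008461600.1 averaged 430 ± 169 (SD) in the 3 libraries at −24 hr and 546 ± 464 in the pair at −15 hr, where male nectaries averaged 16735 ± 4304 and 568 ± 118.9. Its fall in male nectaries differed from the female change (log2 difference −4.97, SE 1.31, adjusted p = 0.00779 by limma). Its female mean at −24 hr was thus near that at −15 hr, while at 0 hr it was 72902 ± 25456 (n = 3). Whether the female −24 hr libraries match the male ones in hour of collection or stage was not tested. Sex cannot be told apart from either in comparisons that use them. The light-harvesting and aquaporin genes with the largest male decreases fell in both sexes: P4 (XM_008454989.1) by 4.2, PIP1-4 (XM_008465000.1) by 2.93 and PIP2-2-like (XM_008451033.1) by 3.22 on the log2 scale in female nectaries. For P4 and both PIP genes the difference between the sexes did not pass, with adjusted p-values of 0.121, 0.0898 and 0.416 by limma. PYL4-like (XM_008444150.1) and SHINE 2-like (XM_008468186.1) changed in opposite directions, with female log2 changes of 0.95, short of 2-fold, and −2.33.

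**Figure D4:**
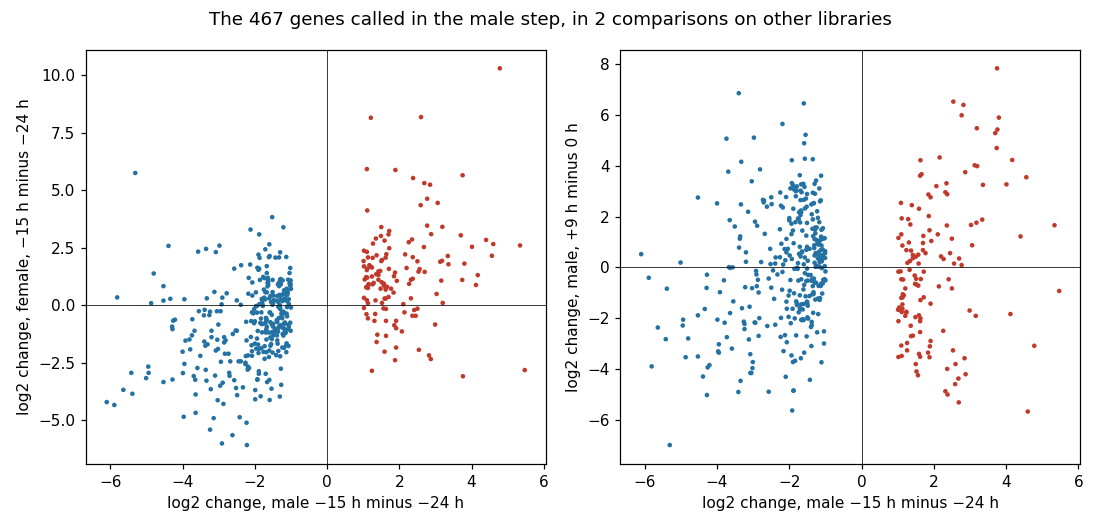
The 467 genes called between −24 and −15 hr in male nectaries, red for those that rose and blue for those that fell, by their log2 change in that step (horizontal axes) and in 2 comparisons on other libraries (vertical axes). The left panel shows female nectaries over the same hours, where 69 of the 139 red and 128 of the 328 blue genes were called the same way. The right panel shows male nectaries from 0 to +9 hr, where 45 red and 104 blue genes were called the same way, and 55 and 102 the other way.

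The same times of day were sampled again in male nectaries 1 day later, at 0 and +9 hr, in other libraries. There 2780 genes (31.4%) were higher and 1559 (17.6%) lower at +9 hr. Of the 139 genes that rose between −24 and −15 hr, 45 rose again from 0 to +9 hr, 55 fell and 39 were not called. Of the 328 that fell, 104 fell again, 102 rose and 122 were not called. The 45 are 32.4% of the genes that had risen and 1.62% of those higher at +9 hr, and the 104 are 31.7% of those that had fallen and 6.67% of those lower at +9 hr. Between the 2 days the flower opens and secretion ends, so time of day and stage cannot be told apart in either step.

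Clock and light genes were among those that moved the same way on both days. LHY-like (XM_008461600.1) had a mean of 57549 with an SD of 36584 at 0 hr (n = 3), and of 5242 with an SD of 4089 at +9 hr (log2 change −3.54, SE 0.87, adjusted p = 0.00163 by limma). PCL1-like (XM_008459233.1) went from 5.7 ± 2.1 to 77.3 ± 23.2 (log2 change 3.55), and adagio protein 3 (XM_008454189.1) from 94 ± 33.2 to 1993 ± 908 (log2 change 4.33). SPA1-RELATED 4 (XM_008454226.1) fell by 3.73 and PIP2-2-like (XM_008451033.1) by 5.03 on the log2 scale. Other genes parted from the first day. P4 (XM_008454989.1) averaged 466.7 ± 248.4 and 642.7 ± 264.2 and did not pass, and ARF6 (XM_008441364.1) rose from 339.7 ± 25 to 6816 ± 2064. CWINV4 (XM_008446238.1) fell from 2660 ± 1883 to 75 ± 43.6, and galactosyltransferase 1 (XM_008465452.1) from 24616 ± 11783 to 458.7 ± 149.2.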

How the data were processed

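RNA from hand-dissected nectaries was sequenced as 23 TruSeq libraries. Trinity contigs were assigned by the authors to melon genes through blastn, and the deposited scores, 1 whole number per gene and library, are reads after upper-quartile scaling. They are not raw counts, so no count model was used. The read counter: not given in the sources used here. Means, SDs, ratios and p-values of the authors, and the other sheets, were not used. Values were tested as log2(value + 1) in limma 3.58.1 under R 4.3.3, using 8 means for sex by stage, a mean-variance trend, 19.6 degrees of freedom and Benjamini-Hochberg adjustment over 8861 genes. Only the male contrast of the main fit was tested on simulated data. Depth in reads is unknown for these values, and low values are the least precise. Genes were named as the 15 largest changes each way among genes called, whose libraries did not overlap, whose higher mean reached 100 and which carry a description, plus called members of lists and genes the study names. Members and lists were chosen with earlier results of these data known. Lists added after values were seen were chlorophyll synthesis, chloroplastic and protein phosphatase 2C. The 6 genes named outside this rule, none of which passed, were chosen after their values were seen: ARF8, GIGANTEA-like, the second REVEILLE 6-like entry, cryptochrome-1 XM_008462418.1, PIP2-5 and photosystem I subunit XI. Alternatives were other scalings, a pseudocount of 10, a filter at a mean of 100, fewer libraries, a replicate block, each male library left out, and no fold threshold. Promoter motifs were planned and not analysed here.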

Additional observations from a re-analysis of the deposited data

Results flagged for a closer look

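Among the genes of largest change and those the study names, 21 were found where the male change between −24 and −15 hr differed from the female change. This was by the test of the difference itself over the same hours (adjusted p under 0.05 by limma and at least 2-fold). Over all genes, the same test called 15.7% with a higher and 12.3% with a lower value in male nectaries. The genes of largest change were chosen by their male change, which is part of the difference tested. That choice favours a difference, so the 21 do not measure how often the sexes differ. The values given for the 21 genes are log2 differences, male minus female. They were positive for the pirin-like protein XM_008449469.1 (2.73), the receptor-like kinase XM_008465551.1 (2.85), the hippocampus abundant transcript-like gene XM_008458370.1 (3.22), serine carboxypeptidase II-2 XM_008454319.1 (3.08), CBSX1-like XM_008463588.1 (4.99) and the low galactosyltransferase 2 entry XM_008466274.1 (1.86).

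They were negative for HIPP26 XM_008458867.1 (−5.54), the LHY-like entries XM_008461606.1 (−6.16), XM_008461600.1 (−4.97) and XM_008461602.1 (−4.74), fructokinase-1 XM_008469032.1 (−4.63) and PMT11 XM_008463486.1 (−3.37). Of the genes of starch, sugar and nectary function, ApS1 AF030382.1 (−1.82), SBE2 XM_008466627.1 (−2.36), AMY3 XM_008448092.1 (−4.65), BAM1 XM_008440214.1 (−5.61), sucrose synthase 5 XM_008464945.1 (−3.97), SWEET9 XM_008443590.1 (−8.16), CWINV4 XM_008446238.1 (−3.16), MYB305 XM_008445303.1 (−9.76) and galactosyltransferase 2 XM_008462536.1 (−4.01) were negative. HIPP26 (XM_008458867.1) rose in both sexes, by 4.78 in male and 10.31 in female nectaries, and fructokinase-1 (XM_008469032.1) fell by 4.34 in male nectaries while its female change was 0.29 and did not pass. Other list members were not screened in this way, and among them SHINE 2-like (XM_008468186.1) had a difference of 5.2 and PYL4-like (XM_008444150.1) of −1.99.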

How the results depend on the processing

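Leaving out 1 male library at a time gave between 65 and 173 genes higher at −15 hr (139 with all) and between 179 and 318 lower (328 with all), with no change of sign among the 467 genes. Genes called the same way in female nectaries numbered between 103 and 196 (197 with all), and those called the same way from 0 to +9 hr between 95 and 156 (149 with all). Quantile normalization gave 194 lower genes and 106 shared with female nectaries, and moved the median change of all genes from −0.035 to 0.026, a check added after seeing the data. No other scaling, pseudocount, filter or choice of libraries moved these counts over all genes by more than 1.5 times, while counts of single lists moved further, as given beside them. With a pseudocount of 10, and with the replicate block, 1 of the 2 higher sugar carriers was called. On all genes, dropping the fold threshold gave 542 calls in place of 467. The replicate block gave 133 higher and 314 lower genes. Deviations from the group means correlated at −0.08, −0.081 and 0.055 between same-numbered male libraries of the 2 timepoints. Differently numbered ones gave −0.057 to 0.128. With 3 libraries per timepoint, these values cannot decide whether the numbers pair samples. Under the block the counts of the difference between the sexes were 1259 and 1015.

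Small changes turned sign. ISA1 (XM_008455308.1) was −0.03 and SPS2 (XM_008458932.1) −0.42 after quantile normalization. Without 1 library each, ApL2 (XM_008468318.1) ranged from −0.2 to 0.3, ISA1 (XM_008455308.1) from −0.28 to 0.33, SPS2 (XM_008458932.1) from −0.11 to 0.09, the low galactosyltransferase 2 entry (XM_008466274.1) from −0.1 to 0.48 and the RING/U-box gene (XM_008439865.1) from −0.38 to 0.01. The causes were not tested.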
